A study of Mus musculus with 25 samples.

Results

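The scaffolds of the postsynaptic density were followed in the CA1 region of the hippocampus of adult mice that had or had not been handled as pups. The genes were Dlg1 to Dlg4, Shank1 to Shank3 and Homer1 to Homer3, and their members on the array were all probe sets that the Mouse 430_2.0 annotation names for 1 of these genes alone. A probe set is a group of short probes against 1 stretch of a transcript. This gave 22 probe sets of 9 genes, out of 45037 probe sets tested and 18193 genes named for a probe set. The Dlg genes had 10 probe sets, the Homer genes 10 and the Shank genes 2, and Shank2 was not analysed here.

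The mice were female Balb c/J, an inbred strain. The 11 handled mice had been taken from their mothers for 15 min on each of postnatal days 1 to 14, and the 14 non-handled mice were left with theirs. All mice went through behavioral tests at 8 weeks of age and were killed 2 weeks afterwards, and 1 array was hybridized per mouse after a double round of RNA amplification. RNA of 7 handled and 10 non-handled mice came from Qiagen columns and RNA of 4 handled and 4 non-handled mice from Trizol, so that extraction method also separates 2 sets of animals, and the method and the set cannot be told apart. Handling was given to whole litters and each group came from fewer litters than mice. Which litter a mouse came from was not given in the sources used here, so each p-value treats littermates as independent and may be too small.

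The postsynaptic density is the protein sheet under the membrane of an excitatory synapse. Dlg proteins lie nearest the membrane and bind glutamate receptors and their auxiliary subunits through PDZ domains. Shank proteins lie deeper and tie the Dlg layer, through the Dlgap adaptors, to Homer proteins, and Homer proteins bind Shank, group I metabotropic glutamate receptors and inositol trisphosphate receptors. Long Homer forms join through a coiled coil, and a short form of Homer1 without it is made after neuronal activity and competes with the long forms. Hippocampal pyramidal neurons express most of these genes.

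The signal is the MAS 5.0 intensity on a linear scale, and it has no meaning between probe sets, since probes differ in how brightly they bind. Ranked by mean signal, 19 of the 22 were among the brighter 50% of all probe sets and 3 were not. The dim ones were Dlg1 1445798_at, Homer1 1425671_at and Shank1 1444240_at. Mean signal per array ran from 736.8 to 910 and median signal from 79.6 to 162.8. The natural-log ratio of 3' to 5' control probe sets of Actb was 2.24 in the non-handled mouse NH162 and at most 1.40 in the other mice with columns, and the 4 handling calls given below held without NH162. The CA1 markers Wfs1, Fibcd1 and Pou3f1 were all in the upper 50%, as were all 3 CA3 markers, and 3 of 4 dentate gyrus markers were in the lower. Such ranks compare different probe sets, so they do not measure the purity of the dissection, which was not tested.

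In Homer2, 2 probe sets were called for handling in opposite directions. In Homer1, 1 of 6 was called, and no ratio between its probe sets passed the test. RefSeq annotates 2 transcript starts for each of these genes. The 250 bases before each start are shown as a description, on build GRCm38.p6 and in the direction of the gene. Windows of the other scaffold genes are not shown. Capitals mark TATAAA, found in 1 of these 4 windows and, on either strand, in 12.4% of 32851 such windows of all genes. TGACGTCA (in 1.55% of all windows) and CACGTG (in 6.02%) were in none of the 4. No probe set was assigned to a start, and a part of the starts in the handling results was not tested.

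Homer1, chr13:93303507-93303756, plus strand: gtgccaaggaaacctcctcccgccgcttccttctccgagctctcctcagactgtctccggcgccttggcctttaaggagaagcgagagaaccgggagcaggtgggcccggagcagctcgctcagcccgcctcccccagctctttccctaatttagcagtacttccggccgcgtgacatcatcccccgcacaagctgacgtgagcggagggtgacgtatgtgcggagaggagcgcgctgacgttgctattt
Homer1, chr13:93307784-93308033, plus strand: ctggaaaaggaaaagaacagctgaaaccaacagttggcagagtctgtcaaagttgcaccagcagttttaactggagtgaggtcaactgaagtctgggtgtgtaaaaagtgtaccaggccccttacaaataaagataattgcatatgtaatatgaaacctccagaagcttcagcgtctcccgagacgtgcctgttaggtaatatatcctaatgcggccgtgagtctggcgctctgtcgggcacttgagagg
Homer2, chr7:81692966-81693215, minus strand: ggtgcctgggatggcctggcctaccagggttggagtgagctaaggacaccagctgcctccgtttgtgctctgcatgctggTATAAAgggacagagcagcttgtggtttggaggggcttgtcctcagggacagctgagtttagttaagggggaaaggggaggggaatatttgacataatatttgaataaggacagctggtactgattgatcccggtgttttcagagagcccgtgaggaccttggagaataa
Homer2, chr7:81706926-81707175, minus strand: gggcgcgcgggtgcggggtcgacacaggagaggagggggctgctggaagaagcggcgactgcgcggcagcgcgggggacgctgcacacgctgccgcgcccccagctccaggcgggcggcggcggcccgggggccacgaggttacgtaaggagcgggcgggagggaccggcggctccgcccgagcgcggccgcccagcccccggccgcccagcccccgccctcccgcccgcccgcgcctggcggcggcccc

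The share of G and C was 62.4% and 46.8% in the Homer1 windows and 52% and 83.2% in the Homer2 windows. The start of Homer2 at the higher coordinates had the most GC-rich window of the 4.

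The first question was whether scaffold signal differed between handled and non-handled mice. It did for 4 of the 22 probe sets, in 3 genes, and not in 1 direction. Homer2 1424367_a_at and Dlg4 1419580_at fell in handled mice, and Homer1 1421768_a_at and Homer2 1436110_at rose. Calls were made at an adjusted p under 0.05 in limma with Benjamini-Hochberg adjustment over all 45037 probe sets, of which 11.5% were called in either direction, 3.58% as higher and 7.93% as lower. The members' share was not tested against that of the array. Over the 22 probe sets the median difference was 0.09 on the log2 scale, 13 estimates were above 0 and 9 below, and at an unadjusted p under 0.05 there were 12, against 27.9% of all probe sets. The median over all probe sets was -0.15, and under quantile normalization it was 0.02. Over all probe sets in the upper 50% of signal, which held 19 of the 22 members, it was -0.02 without that normalization. Quantile normalization gave 3 members as higher and 1 as lower, and scaling arrays to the same mean and variance gave 4 and 1. Over all probe sets the split of 1614 higher and 3571 lower became 1316 and 1594, and 1719 and 1850. In tissue RNA, fewer cells of a type and less RNA per cell cannot be told apart.

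**Figure D1:**
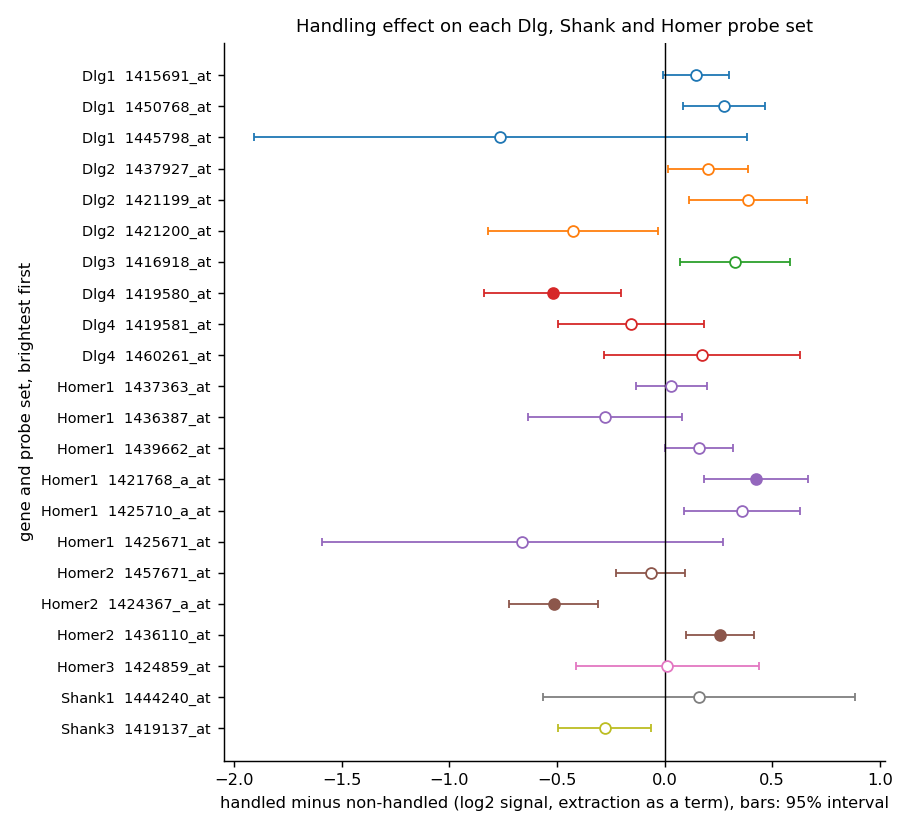
Difference between handled and non-handled mice for each of the 22 probe sets, on the log2 signal scale with extraction method as a term. Each point is an estimate from 25 mice, the bar is its 95% interval, filled points passed the test and colors mark genes. Within each of Dlg1, Dlg2, Dlg4, Homer1 and Homer2, points lie on both sides of 0, and the widest intervals belong to the dim probe sets.

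Dlg4 encodes PSD-95, the most abundant Dlg scaffold of mature synapses. Its probe set 1419580_at ran from 446 to 792 with a median of 619 in handled mice with columns, and from 777 to 1625 with a median of 1212 in non-handled mice with columns. With Trizol, the handled mice had signals of 559, 642, 644 and 912, and the non-handled mice 359, 508, 749 and 785. With columns 6 of 7 handled mice lay below every non-handled mouse, and with Trizol the groups were mixed and the highest mouse was handled. Over both sets the signal fell by 0.52 on the log2 scale in handled mice (SE 0.16, adjusted p = 0.0279 in limma), a signal 0.698 times that of non-handled mice. An exact permutation test of handling within extraction sets, two-sided, gave p = 0.00818. That test was run only for probe sets already called for handling, on the same values and without adjustment. A small p from it is therefore no independent support. The call was lost without handled mouse H108, H109, H116 or H118, with adjusted p up to 0.0627, and under 5 of the other settings tried, quantile normalization (adjusted p = 0.066) among them.

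Neither of the other Dlg4 probe sets passed the test. Probe set 1419581_at had a difference of -0.16 (95% interval -0.49 to 0.18, adjusted p = 0.576), and 1460261_at one of 0.17 (95% interval -0.28 to 0.63, adjusted p = 0.655, both limma). For 1419581_at, handled and non-handled mice had medians of 283 and 295 with columns. The interval of 1460261_at did not reach the estimate of 1419580_at, and that of 1419581_at stopped just short of it.

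Dlg1 encodes SAP97, which is also found at presynaptic and epithelial sites, and neither of its bright probe sets passed the test. Its brightest probe set, 1415691_at, ran from 3586 to 4588 with a median of 3792 in handled and from 3342 to 4044 with a median of 3624 in non-handled mice with columns. With Trizol the handled mice had 4326, 5085, 5355 and 6919 and the non-handled mice 3734, 4334, 5167 and 5635. The groups overlapped in both sets, and the difference was 0.15 (95% interval -0.01 to 0.30, adjusted p = 0.196 in limma). Probe set 1450768_at just missed the threshold, at 0.28 (SE 0.094, adjusted p = 0.0507 in limma), and all 7 handled mice with columns lay above the non-handled median. The dim 1445798_at had an estimate of -0.76 with a 95% interval from -1.91 to 0.38.

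Dlg2 encodes PSD-93, a close relative of PSD-95. Its brightest probe set, 1437927_at, ran from 1877 to 2375 with a median of 2127 in handled and from 1452 to 1973 with a median of 1661 in non-handled mice with columns. Under Trizol, handled mice had 1058, 1282, 1358 and 1837 and the non-handled mice 1259, 1355, 1435 and 1977. With columns 6 of 7 handled mice were above every non-handled mouse, and with Trizol the lowest mouse was handled and the highest non-handled. Over both sets the difference was 0.20 (SE 0.091, adjusted p = 0.138 in limma). The other Dlg2 probe sets pointed in opposite directions without passing the test, 1421199_at at 0.39 (adjusted p = 0.0576) and 1421200_at at -0.43 (adjusted p = 0.145, both limma).

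Dlg3 encodes SAP102, which is prominent at young synapses, and had 1 probe set, 1416918_at. It ran from 3035 to 4849 with a median of 3506 in handled and from 1473 to 3684 with a median of 2666 in non-handled mice with columns. In the Trizol set the handled mice had 2031, 2829, 3459 and 3620 and the non-handled mice 2164, 2523, 3650 and 4069. All handled mice with columns were above the non-handled median, and with Trizol the groups covered the same range. The difference was 0.33 (SE 0.13, adjusted p = 0.0829 in limma).

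Shank genes had 1 probe set each, and neither passed the test. Shank3 1419137_at ran from 1403 to 2149 with a median of 1837 in handled and from 1534 to 3320 with a median of 2121 in non-handled mice with columns. With Trizol the handled mice had 962, 1083, 1144 and 1163 and the non-handled mice 1151, 1190, 1220 and 1534. Handled mice lay low in both sets, with 3 of 4 below every non-handled mouse with Trizol, and the difference was -0.28 (SE 0.11, adjusted p = 0.081 in limma). Shank1 1444240_at was dim and scattered, from 36.7 to 124 with a median of 60.6 in handled and from 9.33 to 164 with a median of 93.1 in non-handled mice with columns. With Trizol it had 78.5, 85.4, 149 and 216 in handled and 53.7, 69.7, 74.6 and 111 in non-handled mice. The groups overlapped, and its difference of 0.16 had a 95% interval from -0.56 to 0.88.

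Homer1 had 6 probe sets, of which 1 passed the test. Probe set 1421768_a_at, whose suffix marks probes shared by alternative transcripts of a gene, ran from 477 to 674 with a median of 615 in handled and from 238 to 499 with a median of 373 in non-handled mice with columns. Under Trizol, handled mice had 413, 490, 498 and 531 and the non-handled mice 455, 465, 501 and 593. With columns 6 of 7 handled mice were above every non-handled mouse, and with Trizol the lowest mouse was handled and the highest non-handled. Over both sets the signal rose by 0.42 (SE 0.12, adjusted p = 0.0189 in limma), 1.34 times that of non-handled mice, with p = 0.00112 in the exact permutation test. The call held with each of the 25 mice left out in turn, and was lost with 3' to 5' control ratios as covariates (0.32, adjusted p = 0.0828 in limma) and with Trizol alone.

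The other 5 Homer1 probe sets did not pass. The brightest, 1437363_at, ran from 5712 to 7953 with a median of 6760 in handled and from 5669 to 7772 with a median of 6409 in non-handled mice with columns. In the Trizol set the handled mice had 4902, 7409, 7431 and 7936 and the non-handled mice 5632, 6705, 6927 and 7534. The groups overlapped in both sets, and the difference was 0.03 (95% interval -0.13 to 0.20, adjusted p = 0.835 in limma), which turned to -0.0083 under quantile normalization. Beside it, 1436387_at stood at -0.28, 1439662_at at 0.16 and 1425710_a_at at 0.36 (adjusted p = 0.311, 0.169 and 0.0706, all limma). The dim 1425671_at had an estimate of -0.66 with a 95% interval from -1.59 to 0.27.

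Homer2, a long Homer form with a coiled coil, was the one member with 2 probe sets called for handling, and they were called in opposite directions. Probe set 1424367_a_at ran from 3578 to 5352 with a median of 4398 in handled and from 5340 to 9044 with a median of 6906 in non-handled mice with columns. With Trizol the handled mice had 2682, 3117, 3870 and 4173 and the non-handled mice 3213, 3703, 3854 and 4461. With columns 6 of 7 handled mice lay below every non-handled mouse, and with Trizol the 2 lowest mice were handled. The signal fell by 0.51 on the log2 scale (SE 0.10, adjusted p = 0.00139 in limma, p = 0.000157 in the exact permutation test), 0.700 times that of non-handled mice.

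Homer2 1436110_at ran from 2010 to 3177 with a median of 2766 in handled and from 1747 to 2585 with a median of 2361 in non-handled mice with columns. Under Trizol, handled mice had 1130, 1177, 1247 and 1324 and the non-handled mice 876, 910, 953 and 1052. The groups overlapped with columns, where 4 of 7 handled mice were above every non-handled mouse, and did not overlap with Trizol, which was so for 3.85% of all probe sets. The signal rose by 0.26 (SE 0.078, adjusted p = 0.0296 in limma, p = 0.00223 in the exact permutation test), 1.19 times that of non-handled mice. The call was lost without H109, H110 or H116, with adjusted p up to 0.0631, and under quantile normalization, where adjusted p was 0.0875.

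The brightest Homer2 probe set, 1457671_at, ran from 6572 to 8670 with a median of 7762 in handled and from 7728 to 9403 with a median of 8524 in non-handled mice with columns. In the Trizol set the handled mice had 6261, 8690, 8970 and 10509 and the non-handled mice 6715, 7496, 7640 and 8463. Handled mice lay low with columns and mostly high with Trizol, and the groups overlapped in both. The difference was -0.06 (95% interval -0.22 to 0.10, adjusted p = 0.635 in limma). Homer3, the third Homer gene, had 1 probe set, 1424859_at. It ran from 71.1 to 161 with a median of 98.4 in handled and from 83.7 to 169 with a median of 110 in non-handled mice with columns. With Trizol it had 92.8, 97.8, 102 and 139 in handled and 54.6, 70.2, 112 and 144.1 in non-handled mice. The groups overlapped in both sets, and the difference was 0.01 (95% interval -0.41 to 0.44, adjusted p = 0.977 in limma).

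**Figure D2:**
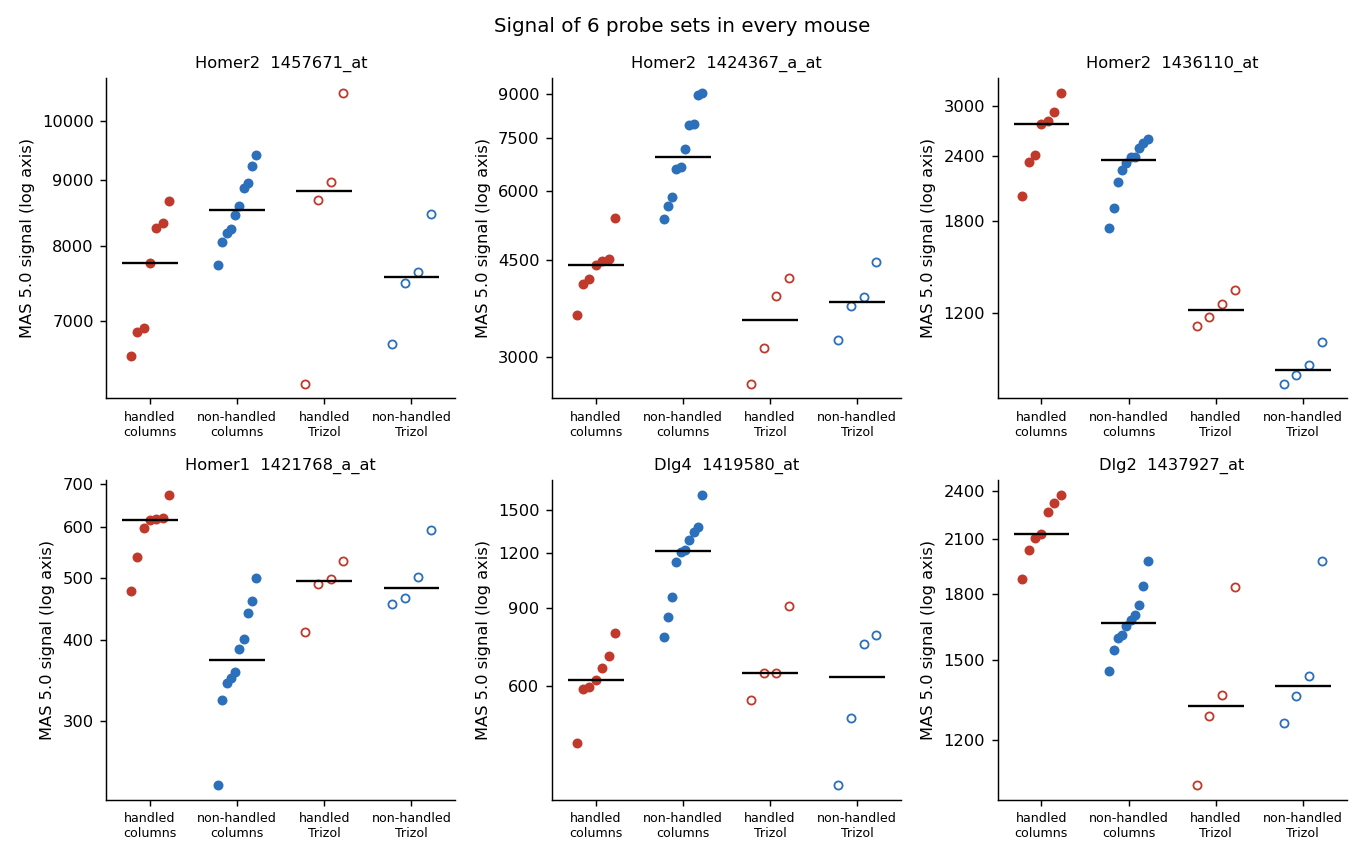
MAS 5.0 signal on log axes for the 3 Homer2 probe sets, Homer1 1421768_a_at, Dlg4 1419580_at and Dlg2 1437927_at. Each point is 1 mouse, red for handled and blue for non-handled, filled for columns and open for Trizol, and lines are group medians. Homer2 1436110_at is the panel in which handled mice lie above non-handled mice with Trizol without overlap, and in the Dlg4 panel the medians with columns are 619 and 1212.

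The second question was whether probe sets of 1 gene agreed. A gene was called in opposite directions by its own probe sets in 95 of 466 genes with at least 2 probe sets called for handling (20.4%, and 1.05% of the 9010 genes with at least 2 probe sets), and Homer2 was 1 of the 95. To test agreement directly, the log2 ratio of each pair of probe sets of a gene, brighter over dimmer, was fitted over 30372 such pairs. Of the 27 pairs in Dlg1, Dlg2, Dlg4, Homer1 and Homer2, 2 changed with handling, 1 in each direction. Both were in Homer2 and held 1424367_a_at, as the dimmer probe set in the ratio that rose and the brighter in the other. Their signs thus differ through the order within the pair, and they are not independent changes. In both, 1424367_a_at was lower against the other probe set in handled mice. Of all pairs 4.74% changed (3.08% with a higher and 1.66% with a lower ratio in handled mice).

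The ratio of Homer2 1424367_a_at to 1436110_at ran from 1.38 to 2.02 with a median of 1.62 in handled and from 2.26 to 4.01 with a median of 3.20 in non-handled mice with columns. With Trizol it ran from 2.15 to 3.69 in handled and from 3.66 to 4.68 in non-handled mice. The groups were apart with columns and met at their edges with Trizol. The log2 ratio fell by 0.77 in handled mice (SE 0.13, adjusted p = 0.00076 in limma over all pairs). Within columns the difference was -0.90 (adjusted p = 0.00222) and within Trizol -0.51 (95% interval -1.09 to 0.06, adjusted p = 0.861, both limma).

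The ratio of Homer2 1457671_at to 1424367_a_at ran from 1.54 to 1.97 in handled and from 0.990 to 1.58 in non-handled mice with columns, and from 2.25 to 2.88 and from 1.51 to 2.33 with Trizol. Handled mice lay high in both sets with a small overlap. The log2 ratio rose by 0.45 (SE 0.11, adjusted p = 0.0182 in limma). The third ratio, 1457671_at to 1436110_at, differed by -0.32 and did not pass (adjusted p = 0.0836 in limma). Both calls held with each of the 25 mice left out in turn, and the second was lost when extraction was not a term (adjusted p = 0.0964).

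**Figure D3:**
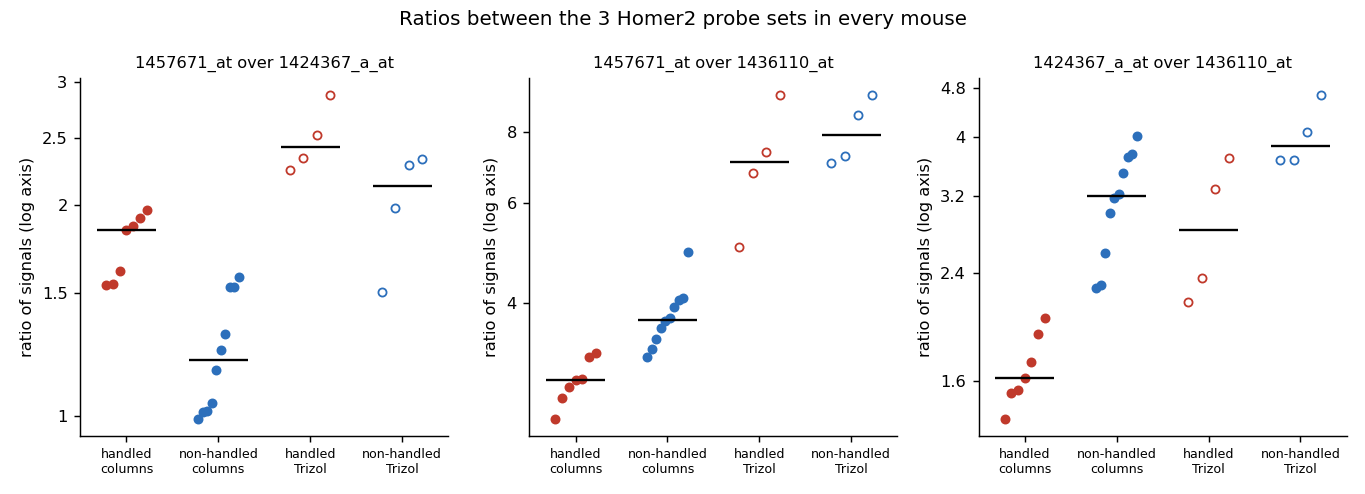
Ratios between the signals of the 3 Homer2 probe sets, on log axes. Each point is 1 mouse, red for handled and blue for non-handled, filled for columns and open for Trizol, and lines are group medians. For 1424367_a_at over 1436110_at the handled mice with columns end at 2.02 and the non-handled mice start at 2.26.

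No pair of the other genes passed over both sets. The ratios of Dlg2 1437927_at and of 1421199_at to 1421200_at differed by 0.63 and 0.81 (adjusted p = 0.0737 and 0.0726). That of Homer1 1436387_at to 1421768_a_at differed by -0.70 (adjusted p = 0.0974), that of Homer1 1421768_a_at to 1425671_at by 1.08 (adjusted p = 0.1097), and that of Dlg4 1419580_at to 1419581_at by -0.36 (adjusted p = 0.242, all limma). With columns alone the ratios of Dlg4 1419580_at to 1419581_at and to 1460261_at passed, at -0.69 (adjusted p = 0.0368 in limma) and -0.998 (adjusted p = 0.0430 in limma). Of the 27 pairs, 13 had an unadjusted p under 0.05, as had 20.9% of all 30372 pairs. After scaling arrays to the same mean and variance 7 pairs passed, 1 with a higher and 6 with a lower ratio in handled mice. Over all pairs that scaling turned the split of 935 higher and 504 lower into 507 and 925.

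Agreement from mouse to mouse is given as the correlation of the residuals of log2 signal over the 25 mice after handling and extraction were removed, as a description, since all values of a mouse share 1 array and its RNA. Over the 27 pairs the median r was 0.21, with a range from -0.37 to 0.72, beside a median of 0.08 over all same-gene pairs and of 0.11 over the 36 pairs of brightest probe sets of different members. Among pairs with both probe sets in the upper 50% of signal, the medians were 0.24 for 20 member pairs and 0.18 for all. With columns alone the member median was 0.15.

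Over all 25 mice, the 3 brightest Homer1 probe sets, 1437363_at, 1436387_at and 1439662_at, had r of 0.61 to 0.72 with each other, and the 3 dimmest had r of 0.29 to 0.53. Between a bright and a dim probe set r ran from -0.05 to 0.28. With columns alone the 3 brightest had lower r as well, 0.41 to 0.54 with each other. The 3 dimmest had r of 0.14 to 0.36 with each other there and from -0.23 to 0.39 with the 3 brightest, so the division was not kept for the dim ones. The called probe set 1421768_a_at is one of the dim 3. The Homer2 pairs had r of 0.29 to 0.54, and the pair called in opposite directions, 1424367_a_at and 1436110_at, had 0.29. In Dlg4 the called 1419580_at had r of 0.50 with 1419581_at and -0.09 with 1460261_at, and in Dlg2 1421199_at and 1421200_at had r of -0.37.

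The third question was whether the difference with handling held in both extraction sets. With columns, 7 of the 22 probe sets passed in limma, 5 higher and 2 lower, and 12% of all probe sets did (4.36% higher and 7.65% lower). Dlg1 1450768_at (0.38), Dlg2 1421199_at (0.46) and 1437927_at (0.36), Dlg3 1416918_at (0.51) and Homer1 1421768_a_at (0.66) rose, and Dlg4 1419580_at and Homer2 1424367_a_at fell by 0.89 and 0.69. With Trizol, 4 handled against 4 non-handled mice gave 0 calls in limma among the members and among all probe sets. There, 3 of 22 members and 2870 of 45037 probe sets had an unadjusted p under 0.05. Handled and non-handled mice were fully apart in 0 of the 22 probe sets with columns (1.63% of all probe sets) and in 2 with Trizol (3.85%), Homer2 1436110_at and the dim Homer1 1425671_at, at 7.14, 7.56, 9.05 and 15.2 in handled and 21.0, 44.3, 56.8 and 103 in non-handled mice.

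Estimates had the same sign in both extraction sets for 13 of the 22 probe sets, as for 62.5% of all probe sets. Homer2 1424367_a_at was lower in handled mice in both sets, at -0.69 and -0.15, and Homer2 1436110_at higher in both, at 0.20 and 0.36. Dlg4 1419580_at was at -0.89 with columns and 0.24 with Trizol, and Homer1 1421768_a_at at 0.66 and -0.06. Dlg3 1416918_at was at 0.51 and -0.04, and Dlg2 1437927_at at 0.36 and -0.13. The calls of Dlg4 and Homer1 over both sets thus rested on the mice with columns.

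The test of the difference itself, an interaction term over all 25 mice, called 0 members in limma, beside 0.0511% of all probe sets, and 8 members had an unadjusted p under 0.05 (7.47% of all probe sets). The member with the smallest p was Dlg4 1419580_at, at -1.13 (SE 0.27, unadjusted p = 0.000206, adjusted p = 0.143 in limma). Homer1 1421768_a_at stood at 0.72 (adjusted p = 0.436) and Homer2 1424367_a_at at -0.54 (adjusted p = 0.548, both limma). A difference between the extraction sets was thus not shown for a member at this number of mice.

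**Figure D4:**
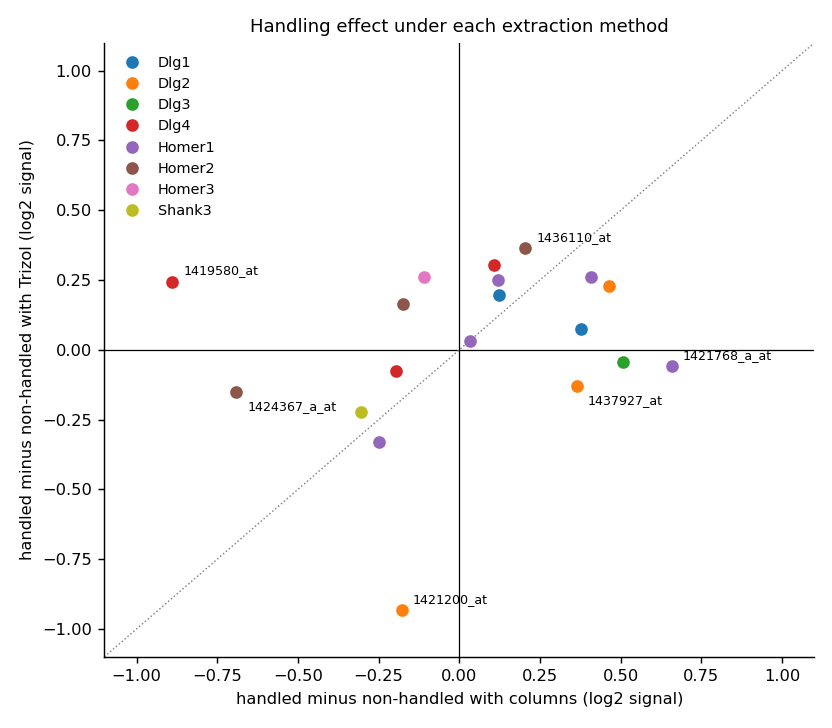
Difference between handled and non-handled mice (log2 signal) with columns on the horizontal axis and with Trizol on the vertical axis, for the 19 brighter probe sets. Each point is 1 probe set, colors mark genes and the dotted line marks equal values. Dlg4 1419580_at lies at -0.89 and 0.24, away from the line, and Homer2 1436110_at near it at 0.20 and 0.36.

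Several scaffolds also differed between the extraction sets. Of the 22 probe sets, 11 differed between columns and Trizol in limma, 8 higher and 3 lower with columns, in 6 genes. Of all probe sets 39.8% differed (16.5% higher and 23.3% lower). In the upper 50% of signal, 8 of 19 members were higher and 3 lower. There, 61.6% of all 22519 probe sets differed, 7303 higher and 6575 lower. Homer2 1436110_at was 2.27 times as bright with columns (log2 difference 1.18, SE 0.083, adjusted p = 1.05e-13). Homer2 1424367_a_at rose by 0.63 (adjusted p = 1.03e-05), and 1457671_at stood at 0.021 (95% interval -0.15 to 0.19). Dlg4 rose in all its probe sets, by 1.16 in 1419581_at, 0.73 in 1460261_at and 0.47 in 1419580_at, and Shank3 rose by 0.77. The 0.47 is an estimate over both handling groups. Medians of 1419580_at were 1212 with columns and 628 with Trizol in non-handled mice, but 619 and 643 in handled mice. Dlg2 1437927_at and 1421199_at rose by 0.41 and 0.35. Dlg1 1450768_at fell by 0.58, Dlg1 1415691_at by 0.40 and Homer1 1439662_at by 0.21 with columns.

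The balance over all probe sets turned with the scaling, from 7430 higher and 10500 lower to 10763 and 8093 under quantile normalization, where members had 10 higher and 5 lower. Of the 27 same-gene ratios, 4 differed with extraction in limma, all 3 of Homer2 and Dlg4 1419580_at to 1419581_at (-0.69, adjusted p = 0.00701), beside 28.9% of all pairs. All 4 were lower with columns, as were 10.3% of all pairs. The log2 ratio of Homer2 1457671_at to 1436110_at fell by 1.16 with columns and that of 1424367_a_at to 1436110_at by 0.55. The natural-log ratio of 3' to 5' control probe sets of Gapdh, a measure of RNA length, moved with extraction, at 0.92 ± 0.12 (SD, n = 7) and 0.88 ± 0.13 (SD, n = 10) with columns and 1.22 ± 0.13 (SD, n = 4) and 1.16 ± 0.083 (SD, n = 4) with Trizol, handled mice first. That of Actb was 1.20 ± 0.093 and 1.34 ± 0.34 with columns and 1.28 ± 0.14 and 1.29 ± 0.16 with Trizol, for the same mice. With both ratios as covariates 6 members were called for extraction, 5 of them among the 11, and 25.1% of all probe sets were. For handling 2 members were called, Dlg4 1419580_at and Homer2 1424367_a_at, and 8.76% of all probe sets. The part of these ratios in the results was not otherwise tested.

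**Figure D5:**
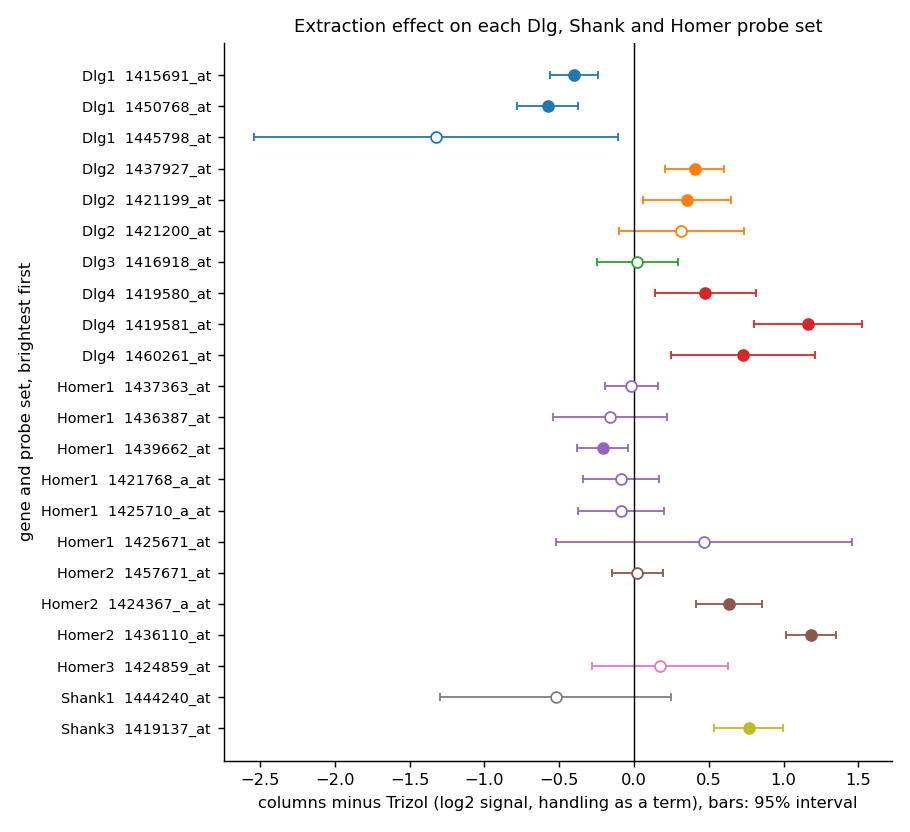
Difference between columns and Trizol for each of the 22 probe sets, on the log2 signal scale with handling as a term. Each point is an estimate from 25 mice, the bar is its 95% interval, filled points passed the test and colors mark genes. All 3 Dlg4 points are filled above 0, and of the Homer2 points 1436110_at lies at 1.18 and 1457671_at at 0.021.

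The partners of the scaffolds were taken as a list of 40 genes whose products bind them or sit beside them, of which 34 were named on the array. By the brightest probe set of each gene, 5 were higher in handled mice, 4 lower and 25 not called in limma, beside 4.47% higher and 9.70% lower over 18193 genes. The list's median was -0.01, and that over all genes -0.12. All 34 partner probe sets were in the upper 50% of signal, where the median over all probe sets was -0.02. The shares over all genes were not matched for signal. Grm5, a group I metabotropic receptor that binds Homer, rose by 0.41 (SE 0.073, adjusted p = 0.00043), and Dlgap1, which links Dlg to Shank, by 0.35 (adjusted p = 0.00516). Akap5, an anchor of kinases and phosphatases on PSD-95, rose by 0.56 (adjusted p = 0.0154). Dlgap3, another Dlg to Shank adaptor, fell by 0.36 (adjusted p = 0.0161), Mpp2, a membrane guanylate kinase, by 0.65 (adjusted p = 0.0161) and Nos1, the neuronal nitric oxide synthase that binds PSD-95, by 0.33 (adjusted p = 0.0255, all limma). These values are for 1 probe set per gene. Counting all probe sets of a gene, 1 of 6 was called for Dlgap1, 1 of 3 for Akap5, 2 of 4 for Nos1 and 2 of 2 for Grm5. Dlgap3 and Mpp2 had 1 probe set each. The partners, like the scaffolds, thus held calls in both directions.

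Markers of the cell types in the tissue were read beside these results. By the brightest probe set of each gene, none of the 3 CA1 markers, 3 CA3 markers, 4 dentate gyrus markers, 4 microglia markers and 3 oligodendrocyte markers passed the test for handling in limma. Another probe set was lower in handled mice for Prox1, Tdo2, Mbp and Gfap, 1 for each gene. Of 5 interneuron markers, Gad2 (0.86) and Gad1 (0.30), the enzymes of GABA synthesis, rose and Pvalb fell by 0.32, and the summed signal of the list ran from 13259 to 19670 in handled and from 11467 to 16681 in non-handled mice. Of 3 pyramidal neuron markers, Camk2a fell by 0.24 (sums from 7668 to 16107 and from 7862 to 15892). Of 4 astrocyte markers Aqp4 rose by 0.32 (sums from 8118 to 17509 and from 7906 to 22862), and of 3 endothelial markers Cldn5 fell by 0.49 (sums from 1083 to 2626 and from 1346 to 3067). Over both sets the ranges of handled and non-handled mice overlapped in every list. Within each extraction set they overlapped in every list but the endothelial one with Trizol, where sums ran from 1083 to 1150 in handled and from 1346 to 2546 in non-handled mice. A sum of signals is led by the brightest probe set of its list, so it does not measure the number of cells. The part of cell makeup in the scaffold results was not tested. With columns, all 3 CA1, 3 pyramidal neuron, 4 astrocyte and 3 oligodendrocyte markers were higher than with Trizol. So were 3 of 4 microglia, 2 of 5 interneuron, 1 of 3 CA3 and 1 of 3 endothelial markers. Of 4 dentate gyrus markers 1 was lower. Of all probe sets 16.5% were higher and 23.3% lower with columns, and in the upper 50% of signal 7303 of 22519 were higher and 6575 lower.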

How the data were processed

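CA1 RNA from 25 mice was measured on Mouse 430_2.0 arrays. The authors summarized each array with MAS 5.0 in Affymetrix Expression Console, without distribution normalization, and deposited linear signal, an intensity per probe set. No build is given for the probe sets in the sources used here. The number of mice limits the precision.

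Groups came from the sample titles. Extraction was read from the labels' protocol text, which names positions in the sample list. Of 45101 probe sets, 64 controls were left out. The platform annotation names 1 gene for 34958 probe sets, several for 932 and none for 9211, and 34754 symbols were updated through the gene identifier. Log2 signal was fitted two-sided in limma 3.58.1 (R 4.3.3, trended prior) with handling and extraction as terms and Benjamini-Hochberg adjustment over all probe sets, or over all ratios of same-gene probe sets. On simulated data with 200 changed probe sets in the upper 50% of signal, the handling fit over 45037 probe sets recovered 51% of log2 changes of 0.5 and 84% of changes of 1, and 6 of 141 calls were false. The simulated noise was independent between probe sets and mice, without array-wide shifts or litters. The share of false calls need not hold for the real arrays. Exact permutations reassigned handling within extraction (1361360 reassignments), only for the members already called for handling and without adjustment.

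Members, partner and marker lists were chosen with earlier results of these data known. Each gene's brightest probe set, the called ones and those in called ratios are given by mouse, and at most 6 called partners by smallest p and 2 markers per list. Pvalb was added to the interneurons after the values were seen, so that every marker whose brightest probe set was called is given. Replicate numbers are mouse numbers. Promoters come from RefSeq. Alternatives were quantile normalization, arrays scaled to 1 mean and variance, an added offset of 32, the upper 50% of signal, no trend, array weights, 3' to 5' covariates, no extraction term, each extraction set alone and each mouse left out. Tables and figures used Python 3.11.15, numpy 2.4.6, pandas 2.3.3, scipy 1.17.1 and matplotlib 3.10.9.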

Additional observations from a re-analysis of the deposited data

Results flagged for a closer look

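In 5 of 88 groups of mice tested for a stray value, 1 mouse lay far from the rest of its group, and chance gives such a gap in about 1 in 20 groups. Among handled mice with Trizol, H113 was highest for Dlg2 1421199_at at 297, with the next mouse at 221. The same mouse was lowest for Homer1 1437363_at at 4902 and for Homer1 1439662_at at 2533, with the next mice at 7409 and 3602, and both are among the 3 brightest Homer1 probe sets. H126 was lowest for Dlg4 1460261_at at 67.6, with the next mouse at 111. Among non-handled mice with columns, NH162 was lowest for Dlg3 1416918_at at 1473, with the next mouse at 2344. The natural-log 3' to 5' ratios of NH162 were the highest of the mice with columns, 2.24 for Actb and 1.19 for Gapdh, and their part in its Dlg3 signal was not tested.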

How the results depend on the processing

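Of the 22 probe sets, 4 were called for handling. This became 7 of 19 in the upper 50% of signal, 7 with columns alone, 2 without the trend, with 3' to 5' covariates or without the extraction term, 0 with Trizol alone, and 2 to 7 with 1 mouse left out. Over all probe sets the share called went from 11.5% to 19.2%, 12.0%, 9.40%, 8.76%, 5.11% and 0% in the same order. With Trizol alone 3 members and 6.37% of all probe sets had an unadjusted p under 0.05 in limma. Handling calls among the 27 ratios went from 2 to 7 (scaled arrays), 5 (offset of 32), 6 (upper 50%), 1 (no extraction term), 4 (columns) and 0 (Trizol), and 2 to 4 with 1 mouse left out. Extraction calls went from 11 to 6 with 3' to 5' covariates, and to 9 to 11 with 1 mouse left out. Extraction calls among ratios were 4 to 5 and interaction calls 0 to 0 with 1 mouse left out. Trizol alone has 8 mice, columns alone 17, and other causes were not tested.

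Homer2 1424367_a_at lost its call with Trizol alone and in no other setting run. Homer1 1421768_a_at lost it with Trizol and with 3' to 5' covariates, Dlg4 1419580_at under both scalings, without the trend, without the extraction term and with Trizol, and Homer2 1436110_at under these, with 3' to 5' covariates and with columns alone. Signs turned with Trizol alone for Dlg1 1445798_at (0.88), Dlg2 1437927_at (-0.13), Dlg3 1416918_at (-0.043), Dlg4 1419580_at (0.24), Homer1 1421768_a_at (-0.059) and Homer2 1457671_at (0.16). They turned with columns alone for Homer1 1425671_at (0.17), Homer3 1424859_at (-0.11) and Shank1 1444240_at (-0.10). Scaled arrays turned Dlg4 1419581_at (0.022) and Homer1 1437363_at (-0.14), which quantile normalization also turned (-0.0083). Homer3 turned with array weights (-0.021) and without the extraction term (-0.0010). With 1 mouse left out Homer3 ran from -0.068 to 0.081 and Shank1 from -0.042 to 0.26. Of the values of single probe sets and ratios under these settings, 291 kept their direction and side of the threshold, 28 lost and 13 gained a call and 14 changed sign. No paired analysis was possible because replicate numbers name mice and no number occurs in both groups.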
